A study of Mus musculus with 14 samples.

Results

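The effect of a Gata4 knock-in on the forestomach epithelium of the mouse embryo was read from RNA sequencing libraries of epithelial cells at stage E14.5. The submitters' source names and genotypes placed 6 of the 14 libraries of the series in this comparison. Of these, 3 libraries carried the genotype label G4 cKI mutant and are called knock-in 1, 2 and 4 after their numbers. They were set against 3 forestomach libraries with the genotype label G4 cKI control, which the source names call wild type and which are called controls 2, 3 and 5. All 6 came from forestomach epithelial cells of the same stage. The remaining 8 libraries were hindstomach epithelium of that stage, of which 5 were labelled as a Gata4 conditional knockout and 3 as its controls, and they were used here as another perturbation of the same gene. The labels name neither the driver that makes the allele conditional nor the locus of the added copy, and they do not say whether the libraries of a group came from separate embryos or litters. The p-values therefore rest on the spread among the libraries at hand, part of which may be technical.

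The mouse stomach joins a pair of very different epithelia. The forestomach is lined by stratified squamous epithelium, with a basal layer marked by p63 and keratin 5 and upper layers that keratinise, whereas the hindstomach is lined by columnar epithelium that forms the gastric glands. GATA4 is a zinc-finger transcription factor that binds GATA motifs, and in the embryonic stomach it is known as a factor of the columnar hindstomach epithelium that is scarce or absent in the squamous forestomach. Vsig1, Tspan8 and Lgr5 stand here for the columnar side and Krt13 and Krt6a for the squamous side.

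Expression was deposited as FPKM, a fragment count scaled by transcript length and by the size of the library, which carries no absolute depth. Values below are given in the order knock-in 1, 2 and 4, then controls 2, 3 and 5. Relative depth, read from the steps between low values, was 61.2% to 80.44% of that of control 2 in libraries labelled knock-in, and 49.2% and 68.1% of it in controls 3 and 5. Between 9248 and 11039 genes reached 1 FPKM in libraries labelled knock-in, against 10432 to 12387 in the controls. Each library also leaned towards transcripts of low or high GC content. The slope of the centred log2 values on GC content was -0.70, -0.84 and -0.09 per 10% GC in libraries labelled knock-in, against 0.82, 0.62 and -0.61 in the controls, so that controls 2 and 3 stood apart from control 5. A principal component analysis of the 6 libraries had 84.9% of the variance on its first axis, which placed control 5 between knock-in 1 and knock-in 4.

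Gata4 itself was measured first as a check of the labels. It stood at 0.402, 0.319 and 1.27 FPKM in libraries labelled knock-in, against 4.50, 1.33 and 0.573 FPKM in the controls. The groups overlapped, and the highest value was in a control (log2 fold change -0.75, SE 0.52, limma adjusted p = 0.268; exact two-sided permutation p = 0.2, the smallest that the 20 assignments of the 6 libraries can give is 0.1). Its log2 fold change turned to 0.30 with the GC slope of the libraries as a covariate. The level of Gata4 is therefore no support for the knock-in label, and which direction counts as a rise or a fall below depends on the label alone. In hindstomach controls, where the gene is normally active, its level was 64.0 ± 2.19 FPKM (SD, n = 3). The labels do not describe the knocked-in construct, so it is unknown how a transcript made from it would have been counted. The paralog Gata5 stood at 0.678, 0.618 and 2.70 FPKM in libraries labelled knock-in and 0.982, 0.168 and 0.0868 FPKM in the controls, with overlapping groups (log2 fold change 0.67, SE 0.48, limma adjusted p = 0.285), but with the GC slope as a covariate it was called higher (log2 fold change 1.499, adjusted p = 0.0294). Gata6, the other GATA factor of gut endoderm, stood at 4.25, 5.44 and 3.56 FPKM in libraries labelled knock-in and 12.1, 4.41 and 12.3 FPKM in the controls, and knock-in 2 overlapped control 3 (log2 fold change -0.87, SE 0.32, limma adjusted p = 0.0959). Without control 3, Gata6 was called lower (adjusted p = 0.0183).

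Genes were tested with limma on log2(FPKM + 1), in a fit in which all 14 libraries of the series shared the estimate of spread, with adjustment over 12694 genes, and called at an adjusted p under 0.05. The libraries labelled knock-in had 333 genes called higher, 2.62% of those tested, and 409 called lower, or 3.22%. All 3 libraries labelled knock-in lay above all 3 controls for 988 genes (7.78%) and below them for 1553 genes (12.2%). Fitted without the hindstomach libraries, the 6 forestomach libraries gave 0 calls in either direction, with 1932 genes at an unadjusted p under 0.05, and Lgr5 and Nup62cl had a limma adjusted p of 0.0522 there. Every call below therefore depends on the spread shared with the hindstomach libraries. The median log2 fold change of all genes was -0.37. Higher calls made up 44.9% of all calls, but 76.5% after values were rescaled to a common sum and 75.3% after quantile normalization, where the median of all genes moved to -0.044 and 0.075. When each of the 6 libraries was left out in turn, 60 of the 333 higher calls and 35 of the 409 lower calls passed in every one of the 6 fits. All 95 of these genes separated the 2 groups of 3 without overlap, and all 95 also passed with the GC slope as a covariate. Of all calls, 202 of the 333 higher and 184 of the 409 lower passed with that covariate. These 95 include Lgr5, Vsig1, Tspan8 and Krt6a, and the other calls depended on at least 1 library.

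**Figure D1:**
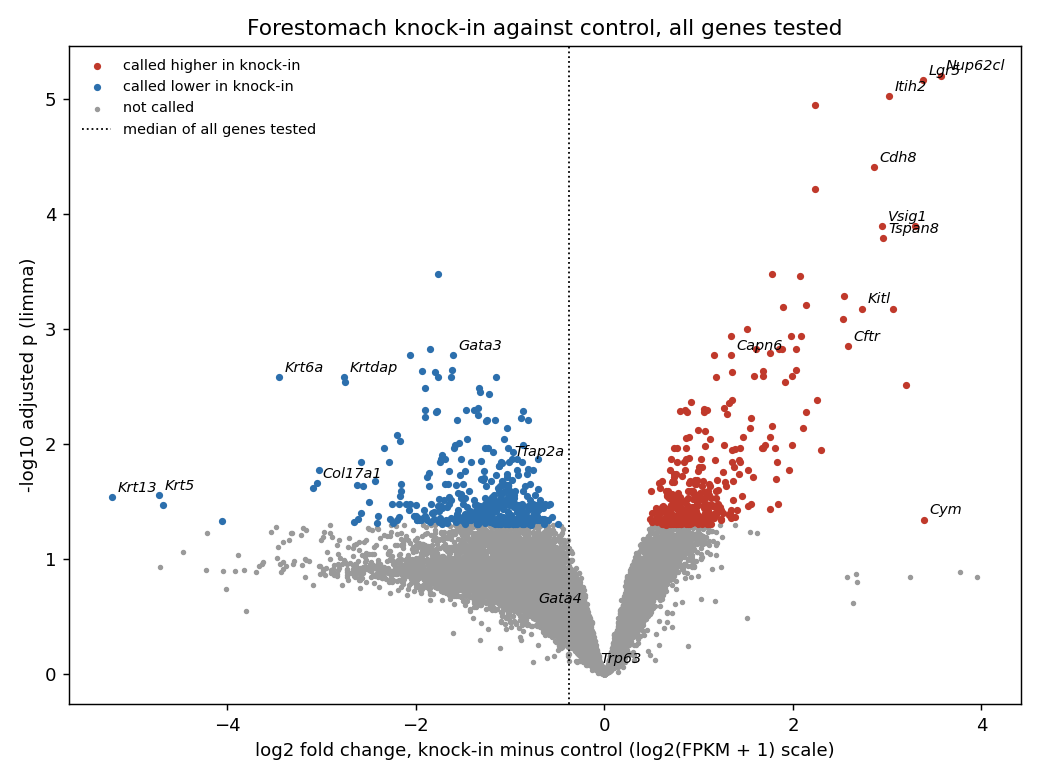
Log2 fold change of libraries labelled knock-in over controls (x axis) against -log10 of the limma adjusted p (y axis) for all 12694 genes tested, 1 point per gene. The 333 genes called higher are red, the 409 called lower are blue, and the dotted line marks the median of all genes at -0.37, left of 0.

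The 3 columnar markers rose by more than any spread between libraries. Lgr5, a receptor for R-spondins that amplifies Wnt signalling and marks stem cells of the gastric glands, stood at 11.4, 9.85 and 13.4 FPKM in libraries labelled knock-in, against 0.188, 0.0996 and 0.323 FPKM in the controls. Every library labelled knock-in was thus above 9 FPKM and every control below 1 FPKM (log2 fold change 3.38, SE 0.21, limma adjusted p = 6.83e-06). Vsig1, an immunoglobulin-family membrane protein of glandular gastric epithelium, stood at 10.6, 10.9 and 10.1 FPKM in libraries labelled knock-in and 0.0730, 0.814 and 0.709 FPKM in the controls (log2 fold change 2.95, SE 0.26, limma adjusted p = 0.000127). The 3 libraries labelled knock-in were closely alike and the lowest of them was far above the highest control. Tspan8, a tetraspanin of columnar gut epithelium, stood at 17.9, 13.7 and 36.0 FPKM in libraries labelled knock-in and 1.65, 2.24 and 1.58 FPKM in the controls, with its highest value in knock-in 4 (log2 fold change 2.96, SE 0.27, limma adjusted p = 0.000163). Hindstomach controls held 8.65 ± 1.80 FPKM of Lgr5, 39.9 ± 9.92 FPKM of Vsig1 and 257 ± 30.6 FPKM of Tspan8 (SD, n = 3), so the libraries labelled knock-in lay above the hindstomach mean for Lgr5 and below it for Vsig1 and Tspan8.

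The squamous markers fell, but not equally in all libraries. Krt6a, a keratin of stratified epithelium, was listed at 0 in knock-in 1 and 2 and stood at 1.32 FPKM in knock-in 4, against 24.7, 20.7 and 4.49 FPKM in the controls (log2 fold change -3.45, SE 0.48, limma adjusted p = 0.00262). Krt13, the keratin of the upper layers of internal squamous epithelia, stood at 0.0452, 0 and 3.72 FPKM in libraries labelled knock-in, against 287, 173 and 4.10 FPKM in the controls. Knock-in 4 and control 5 nearly met, while controls 2 and 3 were far above every other library (log2 fold change -5.22, SE 1.15, limma adjusted p = 0.0289). The Krt13 call ended without knock-in 1 (limma adjusted p = 0.109), without knock-in 2 (0.130), without control 2 (0.132) and without control 3 (0.0794), and with the GC slope as a covariate (0.0549). The Krt6a call passed without each of the 6 libraries, with an adjusted p of at most 0.0192. Both genes passed the filter through the forestomach controls, where they are high, and knock-in 4 was the only other library at 1 FPKM or more. That favoured a fall of both in advance. Krt13 averaged 0.368 ± 0.336 FPKM in hindstomach controls (SD, n = 3), below control 5.

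**Figure D2:**
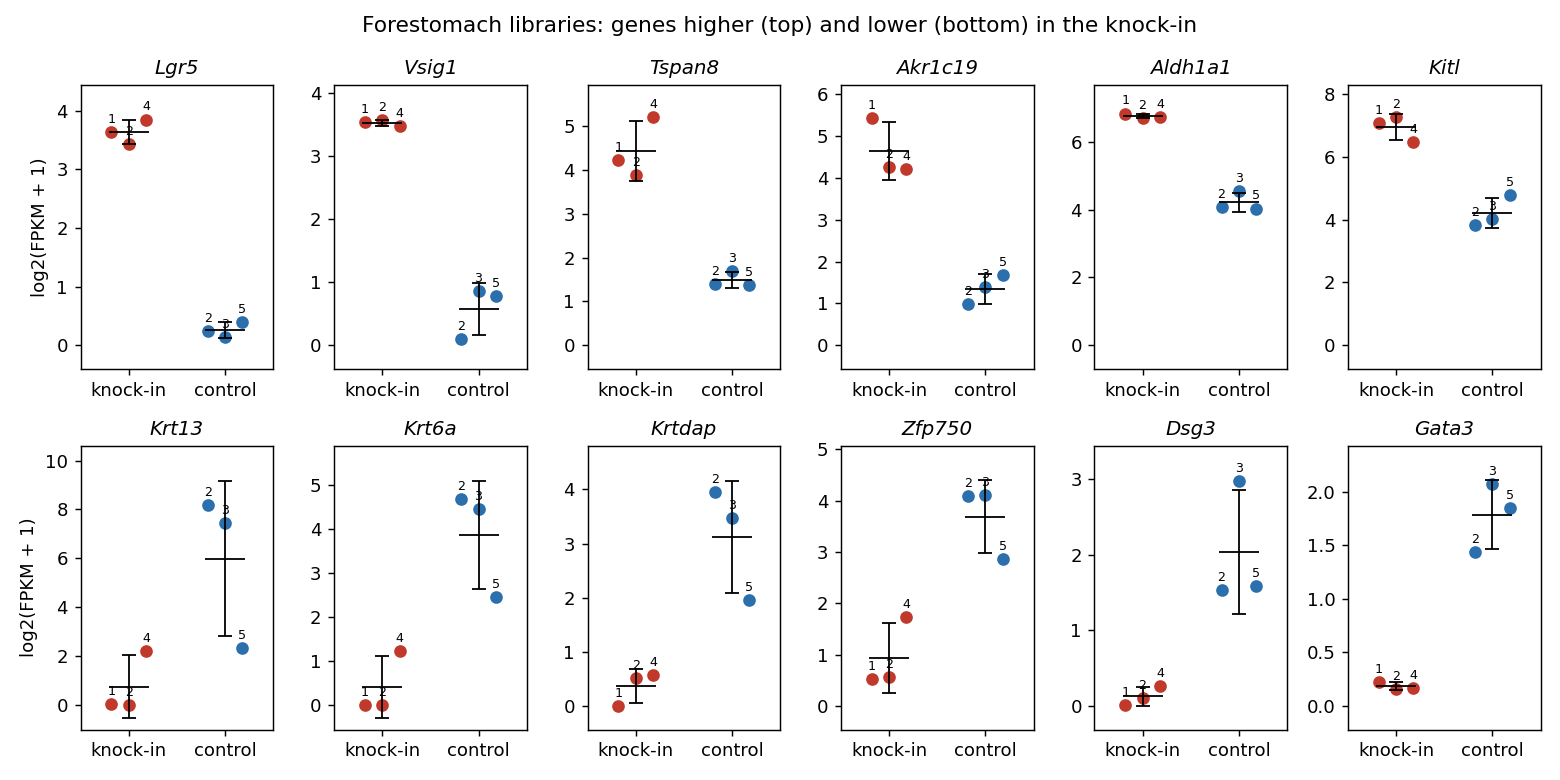
Log2(FPKM + 1) of 12 genes in the 6 forestomach libraries, with libraries labelled knock-in on the left (red) and controls on the right (blue). Numbers are library numbers, horizontal bars are means and error bars are 1 SD (n = 3). The upper 6 genes are higher in all 3 libraries labelled knock-in, and in the lower row Krt13 of control 5 lies next to knock-in 4.

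Other large rises were seen in genes of varied function. Nup62cl, a gene related to a nucleoporin, stood at 16.5, 13.6 and 9.71 FPKM in libraries labelled knock-in, against 0.193, 0.0783 and 0.285 FPKM in the controls, with no overlap (log2 fold change 3.57, SE 0.21, limma adjusted p = 6.27e-06). It was near 0 in the hindstomach as well, at 0.373 ± 0.148 FPKM in hindstomach controls (SD, n = 3). Nup62cl passed the filter through the libraries labelled knock-in alone, so a fall of it could not have been found. Akr1c19, an aldo-keto reductase, stood at 42.3, 18.1 and 17.5 FPKM in libraries labelled knock-in and 0.966, 1.61 and 2.19 FPKM in the controls, highest in knock-in 1 (log2 fold change 3.29, SE 0.29, limma adjusted p = 0.000127). Itih2, a heavy chain of a secreted protease inhibitor that binds hyaluronan, stood at 15.0, 10.6 and 11.3 FPKM in libraries labelled knock-in and 0.339, 0.842 and 0.718 FPKM in the controls (log2 fold change 3.02, SE 0.20, limma adjusted p = 9.42e-06). Spon1, a secreted matrix protein, stood at 22.7, 25.1 and 15.5 FPKM in libraries labelled knock-in and 1.18, 1.79 and 1.89 FPKM in the controls, and Cdh8, a classical cadherin, at 22.3, 21.0 and 15.6 FPKM in libraries labelled knock-in and 1.36, 1.54 and 2.75 FPKM in the controls. Their log2 fold changes were 3.06 (limma adjusted p = 0.000662) and 2.86 (3.91e-05), and neither overlapped.

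Kitl, the ligand of the receptor KIT, was among the most abundant of the rising genes, at 134, 152 and 88.1 FPKM in libraries labelled knock-in, against 13.3, 15.2 and 26.3 FPKM in the controls (log2 fold change 2.73, SE 0.30, limma adjusted p = 0.000662). Every library labelled knock-in was far above the highest control. Cftr, an epithelial chloride channel, stood at 24.2, 29.9 and 12.1 FPKM in libraries labelled knock-in and 1.78, 3.06 and 3.21 FPKM in the controls, lowest in knock-in 4 but still above every control (log2 fold change 2.58, SE 0.32, limma adjusted p = 0.00140). Aldh1a1, which makes retinoic acid from retinaldehyde, stood at 113, 104 and 105 FPKM in libraries labelled knock-in and 15.9, 22.4 and 15.4 FPKM in the controls, with libraries labelled knock-in nearly equal (log2 fold change 2.54, SE 0.27, limma adjusted p = 0.000518). Hindstomach controls held 23.1 ± 0.171 FPKM of Kitl, 6.23 ± 0.354 FPKM of Cftr and 52.3 ± 16.5 FPKM of Aldh1a1 (SD, n = 3) and so lay below every library labelled knock-in for all 3 genes. Cym, the milk-clotting protease chymosin of the young stomach, stood at 8.69, 7.82 and 76.8 FPKM in libraries labelled knock-in and 1.49, 1.20 and 0.0512 FPKM in the controls. Its highest value was in knock-in 4, and the call (log2 fold change 3.39, SE 0.88, limma adjusted p = 0.0453) ended without knock-in 1, knock-in 2, control 2 or control 3, with adjusted p of 0.0921, 0.0969, 0.140 and 0.0859 in turn.

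Because GATA4 binds DNA at GATA motifs, the 250 bases before the annotated start of these genes were read from RefSeq promoter sequence of GRCm38.p6 and searched for the letters AGATAA, for the letters AGATAG, for the letters TGATAA and for the letters TGATAG on both strands, with overlapping matches counted. Of the 12 genes with the largest rise, 10 had a window and 5 had a match, and of the 12 with the largest fall 7 had a window and 2 had a match. Windows of Tspan8 (chr10:115817034-115817283, plus strand), Akr1c19 (chr13:4233490-4233739, plus strand) and Aldh1a1 (chr19:20601718-20601967, plus strand) are shown, 5′ to 3′ and ending at the base before the start site, as rising genes whose windows hold 2 or more matches. Capitals mark the matches.
Tspan8: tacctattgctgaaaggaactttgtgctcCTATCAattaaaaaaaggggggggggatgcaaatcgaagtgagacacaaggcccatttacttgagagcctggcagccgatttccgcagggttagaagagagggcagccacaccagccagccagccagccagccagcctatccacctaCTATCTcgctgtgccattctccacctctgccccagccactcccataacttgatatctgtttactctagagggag
Akr1c19: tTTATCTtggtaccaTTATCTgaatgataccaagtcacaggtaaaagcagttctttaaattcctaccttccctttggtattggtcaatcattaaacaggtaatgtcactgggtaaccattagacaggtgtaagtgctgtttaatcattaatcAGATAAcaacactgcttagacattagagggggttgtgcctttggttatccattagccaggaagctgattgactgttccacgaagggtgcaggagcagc
Aldh1a1: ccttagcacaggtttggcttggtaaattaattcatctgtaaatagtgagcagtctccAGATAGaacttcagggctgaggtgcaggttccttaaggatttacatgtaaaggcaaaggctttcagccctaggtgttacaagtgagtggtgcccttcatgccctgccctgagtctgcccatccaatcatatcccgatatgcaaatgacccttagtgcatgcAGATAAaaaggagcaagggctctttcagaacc
The Tspan8 matches began 221 and 74 bases before the start site, those of Akr1c19 249, 235 and 98 bases before it, and those of Aldh1a1 193 and 32 bases before it. The second annotated Aldh1a1 start is shown, and the window of the other start held no match. Of all windows of tested genes, 16.7% held a match (2045 of 12226), against 20.0% for genes called higher (63 of 315) and 12.6% for genes called lower (46 of 366). Among genes called without each library in turn, 25.4% of windows of higher genes (15 of 59) and 6.25% of windows of lower genes (2 of 32) held a match. The windows of Vsig1, Kitl, Cftr and Krt13 held none of these letters, which says nothing of binding by the factor.

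Counts of called list members, here and below, are to be read beside the shares over all genes, 2.62% higher and 3.22% lower. Of 25 tested genes of a list for gastric glandular epithelium, 8 rose and none fell, and the median log2 fold change was 0.11, against -0.37 for all genes. The members' log2 fold changes ran from -2.90 to 3.39, and their summed level did not follow the calls, at 187, 124 and 455 FPKM in libraries labelled knock-in, against 731, 615 and 63.4 FPKM in the controls. Controls 2 and 3 thus had the highest sums and control 5 the lowest, without rescaling to the total FPKM of each library. Beside Akr1c19, Tspan8, Vsig1 and Cym, the list's calls were Habp2 (a plasma serine protease), Muc1 (a surface mucin), Sox21 (a SOX-family transcription factor) and Cldn10 (a claudin). Muc1 stood at 3.57, 2.72 and 6.54 FPKM in libraries labelled knock-in and 0.339, 0.617 and 0.315 FPKM in the controls (log2 fold change 1.83, SE 0.34, limma adjusted p = 0.0142), without overlap. Its hindstomach controls held 41.8 ± 9.42 FPKM (SD, n = 3), above every forestomach library. Sox21 stood at 29.6, 27.3 and 33.7 FPKM in libraries labelled knock-in and 8.05, 11.4 and 14.1 FPKM in the controls (log2 fold change 1.38, SE 0.26, limma adjusted p = 0.0159), and its hindstomach level was 27.9 ± 4.47 FPKM. Only 3 of the 8 calls, Akr1c19, Tspan8 and Vsig1, passed without each library in turn: Muc1 and Habp2 did not pass without knock-in 1 or control 2 (highest adjusted p 0.0662 and 0.0567), Sox21 without those or knock-in 2 (0.0854), and Cldn10 without knock-in 1, control 2 or control 3 (0.140).

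Other genes that mark the hindstomach gland were not called. Cldn18, the gastric claudin, averaged 206 ± 66.2 FPKM in hindstomach controls (SD, n = 3) but stood at 0.477, 0.814 and 0.761 FPKM in libraries labelled knock-in, against 0.213, 0.521 and 0 FPKM in the controls (limma adjusted p = 0.414). Ctse, the protease cathepsin E, averaged 65.8 ± 32.5 FPKM there and stood at 0.717, 0.435 and 3.03 FPKM in libraries labelled knock-in, against 1.31, 0.232 and 0.112 FPKM in the controls (adjusted p = 0.442). Tff1, a trefoil peptide of gastric surface cells, averaged 22.3 ± 11.6 FPKM there and did not exceed 0.475 FPKM in any forestomach library. Gkn1, Gkn2 and Capn9, also on the list, were listed at 0 in all 6 libraries, as were the parietal cell pump subunit Atp4b and the intrinsic factor gene Gif. Among 9 tested parietal and chief cell genes, 1 rose and 1 fell. The riser, Esrrg, a nuclear receptor known from parietal cells, stood at 2.72, 7.16 and 3.62 FPKM in libraries labelled knock-in and 0.358, 0.147 and 0.127 FPKM in the controls (log2 fold change 2.11, SE 0.35, limma adjusted p = 0.00720). Slc26a7, an anion exchanger, stood at 0.376, 0.385 and 0.544 FPKM in libraries labelled knock-in and 1.43, 3.42 and 1.90 FPKM in the controls (log2 fold change -1.14, SE 0.30, limma adjusted p = 0.0456), and that fall ended without knock-in 1, knock-in 2, control 2 or control 3 (adjusted p up to 0.170), with the GC slope as a covariate (0.0526) and after quantile normalization (0.264).

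Of 19 tested transcription factors of foregut and gut endoderm, 2 rose and none fell, with a median of 0.25. Foxa1, a pioneer factor of endoderm, stood at 73.2, 85.9 and 75.4 FPKM in libraries labelled knock-in and 18.5, 28.1 and 43.8 FPKM in the controls (log2 fold change 1.42, SE 0.28, limma adjusted p = 0.0183). Its call ended without knock-in 1 (0.0605), knock-in 2 (0.0865) or control 2 (0.0799). Hnf4g, a nuclear receptor of gut epithelium, stood at 2.21, 1.88 and 1.18 FPKM in libraries labelled knock-in and 0.00925, 0.150 and 0.122 FPKM in the controls and passed without each library (log2 fold change 1.32, SE 0.20, limma adjusted p = 0.00434). Sox2, a factor of the squamous and gastric foregut, stood at 225, 250.3 and 199 FPKM in libraries labelled knock-in and 67.2, 90.1 and 143 FPKM in the controls, without overlap but just short of the threshold (adjusted p = 0.0505), and it was called after quantile normalization (0.0421). The rest of the list was not called in this fit, Gata4 to Gata6 included, with the exceptions for Gata5 and Gata6 under other settings given above.

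Genes of the columnar cell surface gave few but separate calls. Ocln, the tight junction protein occludin, stood at 27.8, 26.1 and 33.0 FPKM in libraries labelled knock-in, against 5.87, 15.7 and 8.09 FPKM in the controls (log2 fold change 1.56, SE 0.25, limma adjusted p = 0.00590). It was 1 of 2 calls among 23 tight junction and polarity genes, whose median was 0.17, and Cldn15 was called lower (log2 fold change -1.73, adjusted p = 0.0347). Pls1, a plastin that bundles actin in microvilli, stood at 26.4, 29.3 and 21.9 FPKM in libraries labelled knock-in and 3.64, 7.97 and 6.40 FPKM in the controls and was the only call among 13 microvillus genes (log2 fold change 1.98, SE 0.24, limma adjusted p = 0.00114). The 13 pan-epithelial genes had a median of -1.003, below that of all genes, and 1 call, which went the other way. This was Epcam, the epithelial adhesion molecule, at 430.2, 340.2 and 422 FPKM in libraries labelled knock-in and 121, 224 and 225 FPKM in the controls (log2 fold change 1.11, SE 0.27, limma adjusted p = 0.0393). The calls of Cldn15 and Epcam ended without knock-in 1, knock-in 2, control 2 or control 3 (adjusted p up to 0.160 and 0.170), and those of Ocln and Pls1 did not. Epcam was also not called with the GC slope as a covariate (0.0859).

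Of 22 tested genes of the basal squamous layer, 8 fell and 2 rose, and the median was -0.63. Gata3, a GATA factor of stratified epithelia, stood at 0.170, 0.119 and 0.121 FPKM in libraries labelled knock-in, against 1.70, 3.22 and 2.61 FPKM in the controls, every library labelled knock-in far below every control (log2 fold change -1.60, SE 0.21, limma adjusted p = 0.00169). Tfap2a, an AP-2 factor of surface epithelia, stood at 0.865, 0.944 and 0.957 FPKM in libraries labelled knock-in and 1.89, 3.72 and 3.25 FPKM in the controls (log2 fold change -1.01, SE 0.19, limma adjusted p = 0.0142), and its call ended without knock-in 1 (0.0602) or knock-in 2 (0.0577). It was also not called after quantile normalization (adjusted p = 0.417). Tfap2a passed the filter through the forestomach controls alone, so a rise of it could not have been found. Capn6, a calpain without protease activity, was among the 2 risers, at 81.6, 60.5 and 76.9 FPKM in libraries labelled knock-in and 31.3, 27.5 and 25.2 FPKM in the controls (log2 fold change 1.35, SE 0.17, limma adjusted p = 0.00169). The other was Pax9, a foregut transcription factor, whose call ended without knock-in 1, knock-in 2, control 2 or control 3 (adjusted p up to 0.209, against 0.0492 with all libraries) and with the GC slope as a covariate (0.117). Trp63, which encodes p63, stood at 47.0, 45.7 and 54.4 FPKM in libraries labelled knock-in and 35.4, 66.8 and 61.2 FPKM in the controls and was not called (log2 fold change -0.10, adjusted p = 0.897), and hindstomach controls held 1.83 ± 1.02 FPKM (SD, n = 3).

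The basal keratins differed widely between libraries of the same group. Krt5 stood at 1.74, 0.959 and 26.3 FPKM in libraries labelled knock-in, against 301, 381 and 22.4 FPKM in the controls. Krt15, another basal keratin, stood at 10.4, 5.20 and 137 FPKM in libraries labelled knock-in and 1245, 1273 and 104 FPKM in the controls. For both, knock-in 4 lay above control 5, so the groups overlapped, although each was called lower (log2 fold changes -4.72 and -4.68, limma adjusted p = 0.0278 and 0.0337). Col17a1, the hemidesmosome collagen, stood at 0.394, 0.333 and 3.81 FPKM in libraries labelled knock-in and 12.1, 45.5 and 7.28 FPKM in the controls (log2 fold change -3.05, SE 0.63, limma adjusted p = 0.0219), with knock-in 4 the nearest to the controls and control 5 the lowest of these. Dapl1, a gene of stratified epithelium, stood at 10.5, 6.07 and 18.3 FPKM in libraries labelled knock-in and 75.2, 85.9 and 49.5 FPKM in the controls (log2 fold change -2.58, SE 0.48, limma adjusted p = 0.0142). The Krt5, Krt15 and Col17a1 calls ended without knock-in 1, knock-in 2, control 2 or control 3, with adjusted p up to 0.135, 0.154 and 0.111, and the Dapl1 call without knock-in 1, knock-in 2 or control 2 (up to 0.0778). With the GC slope as a covariate neither Krt5 nor Krt15 was called (adjusted p = 0.0534 and 0.0573), and 6 of the 10 calls of the basal list passed. The keratin genes have close relatives, and the sources used here do not say how fragments shared between them were assigned.

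Of 17 tested genes of squamous differentiation, 5 fell and none rose, with a median of -1.36. The filter admitted genes that reached 1 FPKM in the 3 forestomach controls alone, such as Krtdap, and these could not be found to rise. The counts and the median of this list are therefore partly fixed by the filter. Krtdap, a secreted peptide of differentiating keratinocytes, stood at 0, 0.431 and 0.493 FPKM in libraries labelled knock-in, against 14.4, 10.1 and 2.88 FPKM in the controls (log2 fold change -2.76, SE 0.38, limma adjusted p = 0.00262). Zfp750, a transcription factor of terminal epidermal differentiation, stood at 0.438, 0.472 and 2.32 FPKM in libraries labelled knock-in and 16.1, 16.3 and 6.32 FPKM in the controls (log2 fold change -2.75, SE 0.39, limma adjusted p = 0.00289). The lowest control was number 5 for both, and it was still above every library labelled knock-in. Lor, the cornified envelope protein loricrin, was called (log2 fold change -1.28, adjusted p = 0.0196) but not without knock-in 1, knock-in 2 or control 2 (up to 0.104) or after quantile normalization (0.172). Krt4, the partner keratin of Krt13, stood at 0.105, 0.0926 and 2.65 FPKM in libraries labelled knock-in and 52.2, 40.5 and 1.01 FPKM in the controls, overlapped and was not called (adjusted p = 0.0589). Sprr1b and Cnfn, which are late cornification genes, were listed at 0 in all 6 libraries.

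Of 9 tested desmosome genes, 2 fell and 1 rose. Dsg3, the desmoglein of stratified epithelia, stood at 0.0132, 0.0768 and 0.199 FPKM in libraries labelled knock-in, against 1.89, 6.89 and 2.01 FPKM in the controls (log2 fold change -1.91, SE 0.29, limma adjusted p = 0.00507). It passed the filter through the forestomach controls alone, so a rise of it could not have been found. Pkp1, the plakophilin of stratified epithelia, stood at 0.600, 0.364 and 4.93 FPKM in libraries labelled knock-in and 28.9, 40.0 and 5.50 FPKM in the controls, with knock-in 4 close to control 5 (log2 fold change -3.09, SE 0.65, limma adjusted p = 0.0240). Pkp2, the plakophilin of simple epithelia, stood at 6.13, 5.74 and 6.65 FPKM in libraries labelled knock-in and 2.23, 1.98 and 3.16 FPKM in the controls (log2 fold change 1.07, SE 0.18, limma adjusted p = 0.00767). The 2 plakophilins thus moved in opposite directions, but the Pkp1 call ended without knock-in 1, knock-in 2, control 2 or control 3 (adjusted p up to 0.122) or with the GC slope as a covariate (0.0535), and that of Pkp2 did not. Further falls that passed without each library were Dlx3, a homeobox factor of epidermis (log2 fold change -2.06), the transmembrane serine proteases Tmprss11a and Tmprss11b (-1.56 and -1.85) and Klk11, a kallikrein (-1.77). Dlx3 and Tmprss11b passed the filter through the forestomach controls alone, so a rise of them could not have been found. For Klk11 knock-in 4 was the only other library at 1 FPKM or more, which favoured a fall. Anxa8, an annexin of stratified epithelium, stood at 3.58, 1.75 and 8.18 FPKM in libraries labelled knock-in and 69.7, 63.9 and 12.7 FPKM in the controls (log2 fold change -3.03, SE 0.59, limma adjusted p = 0.0167), and its call ended without knock-in 1, knock-in 2, control 2 or control 3 (up to 0.0910).

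**Figure D3:**
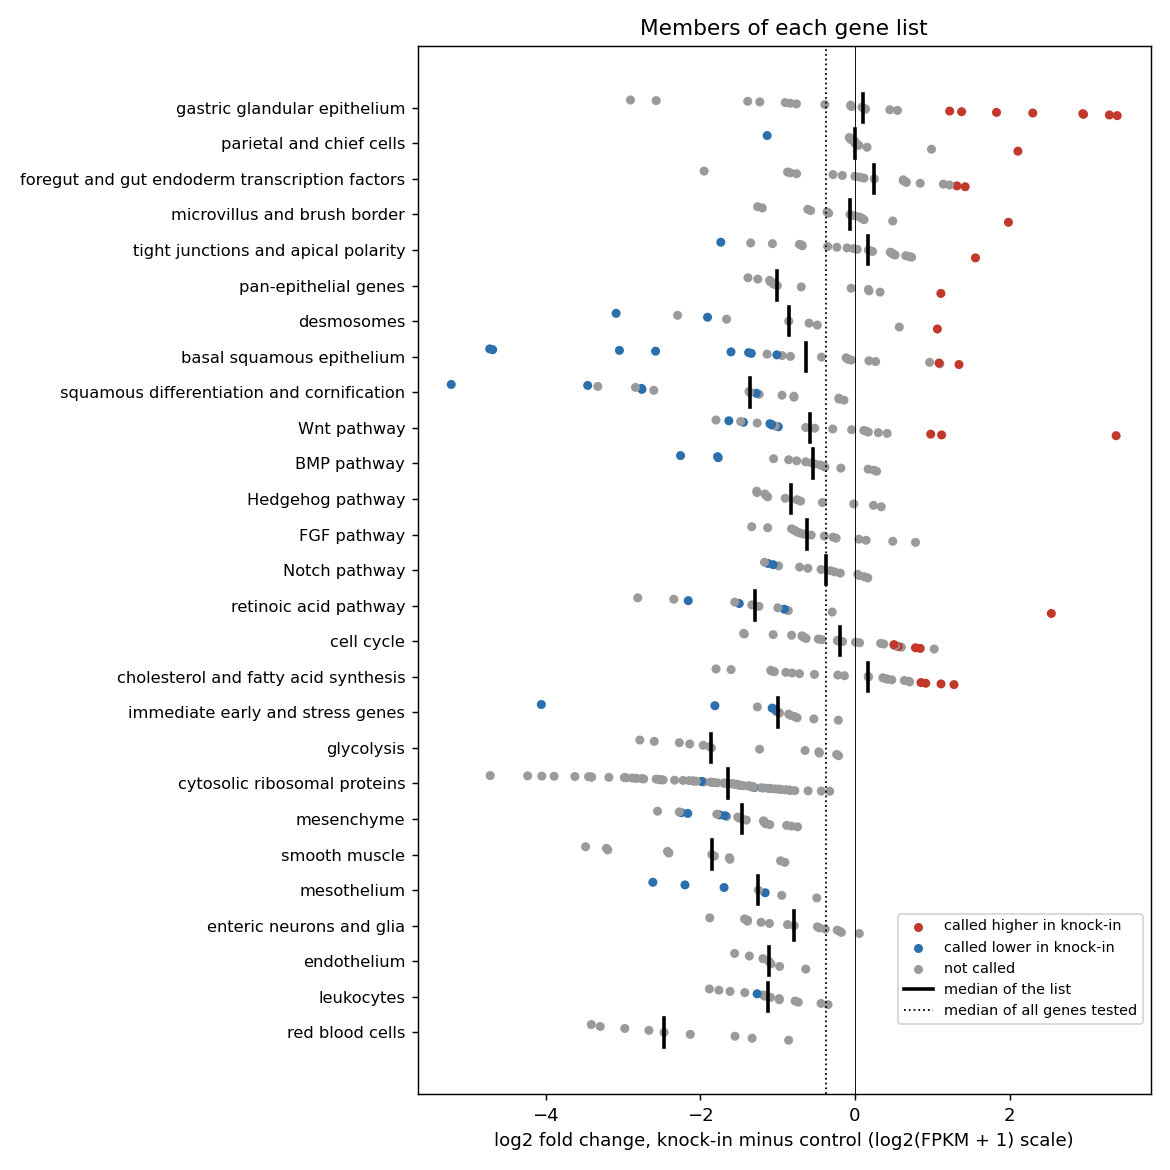
Log2 fold change of libraries labelled knock-in over controls (x axis) for the tested members of 27 gene lists, 1 point per gene and 1 list per row. Red points were called higher and blue points lower, thick bars are list medians and the dotted line is the median of all genes at -0.37. The glandular list holds 8 red points and no blue point, the squamous differentiation list 5 blue points and no red point, and the mesenchyme list lies wholly below 0.

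In the Wnt pathway, 3 of 22 tested genes rose and 5 fell, with a median of -0.58. The risers were the receptors Lgr5 and Lgr4 and the target gene Sp5. Lgr4 stood at 69.9, 73.8 and 67.0 FPKM in libraries labelled knock-in and 19.8, 36.9 and 43.5 FPKM in the controls (log2 fold change 1.12, SE 0.23, limma adjusted p = 0.0230), and its call ended without knock-in 1 (0.0852) or knock-in 2 (0.102). Wif1, a secreted Wnt inhibitor, fell without overlap, at 0.175, 0.0877 and 0.689 FPKM in libraries labelled knock-in, against 2.25, 4.03 and 2.91 FPKM in the controls (log2 fold change -1.63, SE 0.23, limma adjusted p = 0.00262). Wif1 passed the filter through the forestomach controls alone, so a rise of it could not have been found. The other falls were the receptor Fzd10, the ligand Wnt5a, and Dkk3 and Nkd1, and neither these nor Sp5 passed without knock-in 1, knock-in 2, control 2 or control 3 (adjusted p up to 0.206, for Wnt5a). Fzd10, Dkk3 and Nkd1 were also not called with the GC slope as a covariate (0.0673, 0.0671 and 0.107), and these and Wnt5a were not called after quantile normalization (up to 0.421, for Fzd10). Axin2, a common readout of Wnt signalling, stood at 3.56, 2.72 and 6.59 FPKM in libraries labelled knock-in and 5.92, 5.22 and 2.27 FPKM in the controls, with overlapping groups (adjusted p = 0.918).

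In the BMP pathway, 3 of 16 tested genes fell and none rose. Bmp4, a ligand made by gut mesenchyme, stood at 5.34, 3.59 and 5.16 FPKM in libraries labelled knock-in, against 27.4, 14.2 and 15.7 FPKM in the controls (log2 fold change -1.78, SE 0.28, limma adjusted p = 0.00510). The BMP target genes Id1 and Id3 stood at 9.32, 4.94 and 19.7 and 6.13, 3.58 and 5.62 FPKM in libraries labelled knock-in, against 55.6, 35.4 and 23.3 and 59.0, 33.2 and 10.5 FPKM in the controls. Their log2 fold changes were -1.77 (limma adjusted p = 0.0343) and -2.26 (0.0328), and both calls ended without knock-in 1, knock-in 2, control 2 or control 3 (up to 0.158 and 0.144), that of Id1 also with the GC slope as a covariate (0.0707). In the retinoic acid pathway, 1 of 12 tested genes, Aldh1a1, rose and 3 fell. Aldh1a2, the synthesising enzyme of mesenchyme and mesothelium, stood at 6.23, 6.65 and 17.4 FPKM in libraries labelled knock-in and 53.9, 45.9 and 34.0 FPKM in the controls (log2 fold change -2.15, SE 0.46, limma adjusted p = 0.0253), and Cyp26a1, which degrades retinoic acid, at 1.09, 0.339 and 1.20 FPKM in libraries labelled knock-in and 4.78, 4.11 and 3.68 FPKM in the controls (log2 fold change -1.50, SE 0.31, limma adjusted p = 0.0222). Without knock-in 1, knock-in 2, control 2 or control 3 neither of these falls passed (up to 0.122 and 0.112). Aldh1a2 was also not called with the GC slope as a covariate (0.0563), nor Cyp26a1 after quantile normalization (0.0893).

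In the Notch pathway 2 of 14 tested genes fell, the target Hey1 and the ligand Jag2 (log2 fold changes -1.12 and -1.06, limma adjusted p = 0.0492 and 0.0493), and both calls ended without knock-in 1, knock-in 2, control 2 or control 3 (up to 0.211 and 0.213), or without the hindstomach library labelled knockout 5, which shares the estimate of spread (0.0541 and 0.0530). With the GC slope as a covariate they were at 0.0977 and 0.133, after quantile normalization at 0.233 and 0.201. Jag2 passed the filter through the forestomach controls, with knock-in 4 the only other library at 1 FPKM or more, which favoured a fall. None of 12 Hedgehog and 16 FGF genes was called. Shh, the epithelial Hedgehog ligand, stood at 60.1, 72.5 and 32.7 FPKM in libraries labelled knock-in and 19.9, 51.0 and 67.7 FPKM in the controls (adjusted p = 0.559). Fgfr2, the receptor for mesenchymal FGF10, stood at 111, 113 and 171 FPKM in libraries labelled knock-in and 61.8, 143 and 87.1 FPKM in the controls (adjusted p = 0.242), and both genes overlapped between groups. Single regulators outside these lists passed without each library: Irx3 and Irx5, a pair of Iroquois homeobox genes, rose by 1.54 and 1.78 on the log2 scale, Cxcr4, a chemokine receptor, by 1.76, and the Hox genes Hoxb6 and Hoxc8 changed by -1.62 and -1.47.

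Among 26 cell cycle genes 4 rose and none fell, with a median of -0.19. Top2a, the topoisomerase of dividing cells, stood at 165, 176 and 139 FPKM in libraries labelled knock-in and 79.8, 102 and 84.6 FPKM in the controls (log2 fold change 0.84, SE 0.16, limma adjusted p = 0.0142), and Mki67, a proliferation marker, at 76.4, 70.5 and 78.2 FPKM in libraries labelled knock-in and 32.0, 45.7 and 54.9 FPKM in the controls (log2 fold change 0.78, SE 0.18, limma adjusted p = 0.0338). The smallest were Mcm4 and Ccnb1, at 0.50 and 0.56. Among 24 genes of cholesterol and fatty acid synthesis 4 rose and none fell, with a median of 0.17, namely Idi1, Msmo1, Cyp51 and Sc5d, all enzymes of sterol synthesis. Idi1 stood at 153, 176 and 91.0 FPKM in libraries labelled knock-in and 44.8, 51.4 and 71.8 FPKM in the controls (log2 fold change 1.28, SE 0.26, limma adjusted p = 0.0213). Not one of these calls passed without knock-in 1, without knock-in 2 or without control 2 (adjusted p up to 0.0772 for Top2a, 0.140 for Mki67 and 0.111 for Idi1), and those of Mki67, Mcm4, Ccnb1 and Idi1 also ended without control 3. With the GC slope as a covariate all 4 sterol calls passed, but of the cell cycle calls only Top2a did (Mki67 0.0646, Mcm4 0.0618 and Ccnb1 0.0598). Of 14 immediate early and stress genes 5 fell, among them Fos, Myc and the heat shock gene Hspb1 (-1.07, -1.81 and -4.05), and none of the 5 passed without knock-in 1, knock-in 2, control 2 or control 3 (adjusted p up to 0.224, for Ier3). With the GC slope as a covariate only Hspb1 of the 5 passed, and Dusp1, Fos, Myc and Ier3 did not (0.0846, 0.0636, 0.0918 and 0.126). Of 73 cytosolic ribosomal protein genes 2 were called lower, near the 3.22% of all genes, with a median of -1.63. Of 13 glycolysis genes none was called, with a median of -1.86. Both medians lay below that of all genes. Neither ribosomal call, Rps15a and Rplp1, passed with the GC slope as a covariate (adjusted p = 0.0848 and 0.122).

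**Figure D4:**
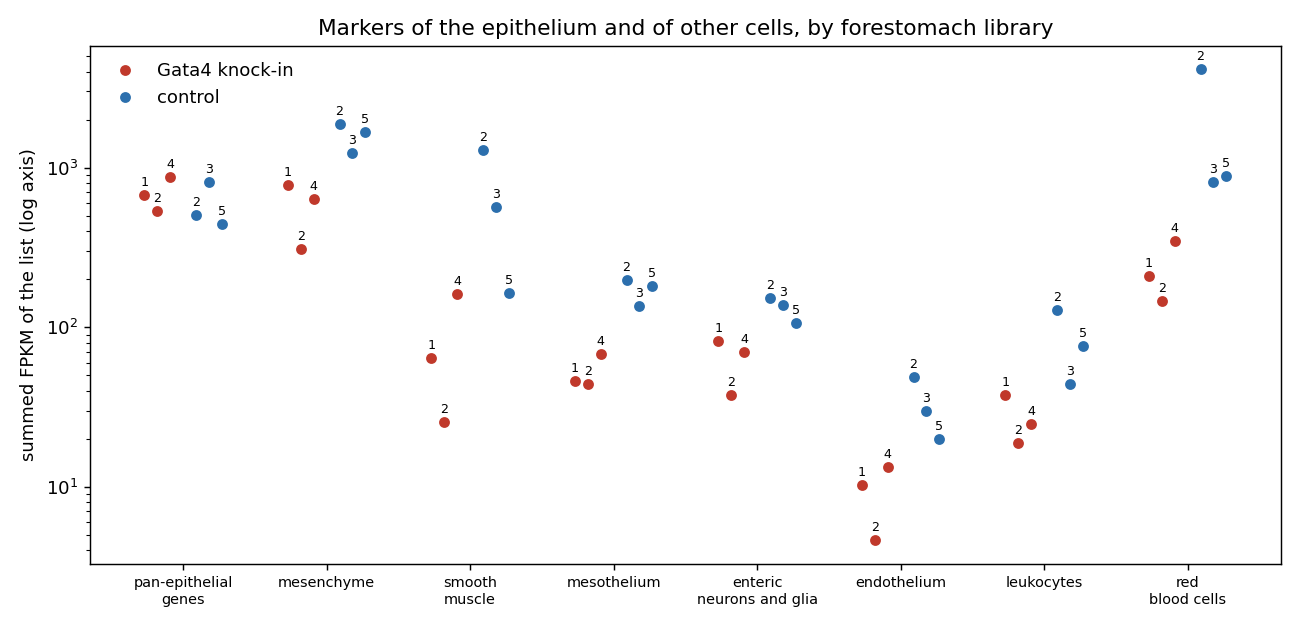
Summed FPKM of marker lists (log y axis), not rescaled to library totals, in each forestomach library. Libraries labelled knock-in are in red on the left and controls in blue on the right of each list, with library numbers above the points. Pan-epithelial sums overlap between the groups, and sums for mesenchyme, smooth muscle, mesothelium, enteric neurons and glia, endothelium, leukocytes and red blood cells are lower in all 3 libraries labelled knock-in.

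Summed markers of cells other than epithelium were lower in libraries labelled knock-in, before any rescaling to library totals. In these bulk samples, fewer cells of a type and less RNA per cell cannot be told apart. The summed level of 25 mesenchyme genes was 308 to 782 FPKM in libraries labelled knock-in and 1228 to 1876 FPKM in the controls, and 4 of 22 tested members fell. Col1a1, the main fibrillar collagen, stood at 17.5, 9.49 and 11.9 FPKM in libraries labelled knock-in and 98.1, 47.4 and 45.7 FPKM in the controls (log2 fold change -2.16, SE 0.45, limma adjusted p = 0.0222). Sums did not overlap for smooth muscle (25.5 to 161 FPKM in libraries labelled knock-in, 164 to 1286 FPKM in controls), mesothelium (43.9 to 67.7, against 135 to 196), enteric neurons and glia (37.5 to 81.8, against 105 to 152) or endothelium (4.62 to 13.3, against 19.9 to 49.1). The same held for leukocytes (18.8 to 37.5, against 43.8 to 129) and red blood cells (145 to 346, against 817 to 4121). The pan-epithelial sum overlapped, at 537 to 868 FPKM in libraries labelled knock-in and 445 to 817 FPKM in controls. These sums were not rescaled to the total FPKM of each library. That total was 292430, 242910 and 333187 in knock-in 1, 2 and 4, against 487908, 389864 and 305860 in controls 2, 3 and 5. Divided by these totals, the leukocyte sum of knock-in 1 (37.5 FPKM) would exceed that of control 3 (43.8 FPKM). Leukocytes would thus overlap. Every pan-epithelial value of libraries labelled knock-in would then lie above every control, and the other lists that did not overlap would stay apart. No defining marker of mesenchyme, smooth muscle or mesothelium was at 0 in all 6 libraries, whereas liver, pancreas and lung lists summed to at most 8.40 FPKM in any of them.

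These sums bear on genes that other cells make. Bmp4, Aldh1a2 and Wnt5a, named above, are expressed in gut mesenchyme, and they moved in the same direction as the mesenchyme sum; the part of these cells in the falls was not tested. Of 7 mesothelial genes 4 fell, and Upk1b and Upk3b, both uroplakins, stood among them. Upk1b stood at 2.75, 2.12 and 8.94 FPKM in libraries labelled knock-in, against 24.9, 21.7 and 18.1 FPKM in the controls (log2 fold change -2.20, SE 0.37, limma adjusted p = 0.00833), and it alone of the 4 passed without each library. Upk3b stood at 1.53, 0.422 and 6.65 FPKM in libraries labelled knock-in and 30.5, 22.9 and 7.32 FPKM in the controls, with knock-in 4 next to control 5 (log2 fold change -2.61, SE 0.67, limma adjusted p = 0.0448), and its call ended without knock-in 1, knock-in 2, control 2 or control 3 (up to 0.200) and with the GC slope as a covariate (0.0826). Fabp4, a fatty acid binding protein of adipocytes and capillary endothelium, and Gsn, the actin-severing gelsolin, were also among the 12 largest falls, at -2.62 and -2.59, with the same dependence (up to 0.117 and 0.181). No mesenchymal call passed without each library: Col1a1 did not pass without knock-in 1, knock-in 2 or control 2 (up to 0.114), nor did Sparc or Vim (up to 0.173 and 0.205), which also ended without control 3. The Vim call ended without the hindstomach library labelled knockout 5 as well (adjusted p = 0.0516). With the GC slope as a covariate none of the 4 mesenchymal calls passed (Col1a1 0.0510, Sparc 0.0848 and Vim 0.0789), and Sparc and Vim did not pass after quantile normalization (0.0640 and 0.0777).

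The hindstomach libraries labelled as a Gata4 knockout and their controls share no sample with the forestomach groups. Gata4 stood at 16.9, 19.4, 13.0, 32.1 and 59.6 FPKM in the libraries labelled knockout 1 to 5, against 65.7, 61.5 and 64.9 FPKM in hindstomach controls 2, 3 and 4, so the library labelled knockout 5 lay near control level (log2 fold change -1.37, limma adjusted p = 0.0672). The slope on GC content was 0.61, 0.57 and 0.56 per 10% GC in hindstomach controls 2, 3 and 4. It was -0.52, -0.42, -0.57, 0.09 and 0.49 in the libraries labelled knockout 1 to 5, each below every hindstomach control. The knockout calls and values given here were taken without that slope as a covariate, so the 2 cannot be told apart in them. In the knockout 883 genes were called higher (6.96%) and 797 lower (6.28%). Of the 333 genes called higher in libraries labelled knock-in, 47 (14.1%) were called lower in the knockout, which is 5.90% of the knockout's lower calls, and 19 (5.71%) were called higher there. Of the 409 called lower, 64 (15.6%) were called higher in the knockout, or 7.25% of its higher calls, and 20 (4.89%) were called lower there. Without knockout 5, an alternative chosen after the data were seen, the 2 opposite counts were 49 and 83.

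The difference between the 2 effects, knock-in minus knockout on the log2 scale, was tested in the same limma model. It was called above 0 for 405 genes (3.19%) and below 0 for 967 genes (7.62%), or 449 and 1055 without knockout 5. Among the knock-in's own calls, 152 of the 333 higher and 268 of the 409 lower had such a difference in their direction. Of the genes called without each library in turn, 59 of 60 higher and 31 of 35 lower had one. This difference contains the knock-in effect by which all these genes were called, so a difference in their direction was favoured in advance. In the knockout itself, 22 of the 60 were called lower and 1 higher, and of the 35, 11 were called higher and 3 lower.

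The columnar markers moved oppositely in the 2 experiments. Vsig1 averaged 14.4 ± 3.42 FPKM in knockout libraries and 39.9 ± 9.92 FPKM in hindstomach controls (SD, n = 5 and n = 3), a log2 fold change of -1.41 (limma adjusted p = 0.00395), and its difference between the effects was 4.35 (adjusted p = 5.47e-05). Tspan8 and Lgr5 also fell in the knockout (-1.32 and -0.92, adjusted p = 0.00675 and 0.0105). Cym had the widest difference, 8.34 (adjusted p = 0.00200), with 149.8 ± 165 FPKM in knockout libraries and 3759 ± 2093 FPKM in hindstomach controls. Arl14, a small GTPase, stood at 18.1, 20.4 and 16.2 FPKM in libraries labelled knock-in and 2.62, 2.48 and 1.85 FPKM in the controls and at 6.27 ± 2.20 FPKM in knockout libraries against 27.9 ± 6.59 FPKM in hindstomach controls (difference 4.56, adjusted p = 6.87e-05). Esrrg and Cfi, the complement protease factor I, fell in the knockout by 2.32 and 2.44 on the log2 scale, with differences of 4.43 and 4.40 (adjusted p = 0.000288 and 0.000578). Nup62cl, Kitl and Cftr, in contrast, were not called in the knockout (-0.07, 0.34 and 0.09; adjusted p = 0.768, 0.342 and 0.813).

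On the falling side, Gata3 was higher in the knockout, at 1.05 ± 0.393 FPKM against 0.167 ± 0.112 FPKM in hindstomach controls (0.80, limma adjusted p = 0.0183), with a difference of -2.40 (adjusted p = 0.000551). Krt6a stayed near 0 in both hindstomach groups (0.120 ± 0.125 FPKM in knockout libraries and 0.0300 ± 0.0282 FPKM in hindstomach controls), and Krt13 likewise (0.226 ± 0.366 FPKM in knockout libraries and 0.368 ± 0.336 FPKM in hindstomach controls). Anxa8 averaged 20.7 ± 6.48 FPKM in knockout libraries and 5.73 ± 1.52 FPKM in hindstomach controls, which was not called (adjusted p = 0.0547), while the difference was (-4.69, adjusted p = 0.00451). Hoxa4, a Hox gene, and Ccl11, the chemokine eotaxin, rose in the knockout (2.36 and 1.76) and had differences of -4.06 and -4.16 (adjusted p = 0.000256 and 0.00807). Mesenchyme markers moved with this pattern as well: 12 of 22 were called higher in the knockout (6.96% of all genes) and 18 had a difference below 0 (7.62% of all genes). Their part in the falling genes was not tested. Of the 25 tested glandular genes 17 were called lower in the knockout, against 8 called higher in libraries labelled knock-in. Over all genes these shares were 6.28% and 2.62%. Glandular genes could pass the filter through the 3 hindstomach controls alone, where they are high, which favours a fall in the knockout. The 17 falls are therefore no separate support for the 8 rises.

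**Figure D5:**
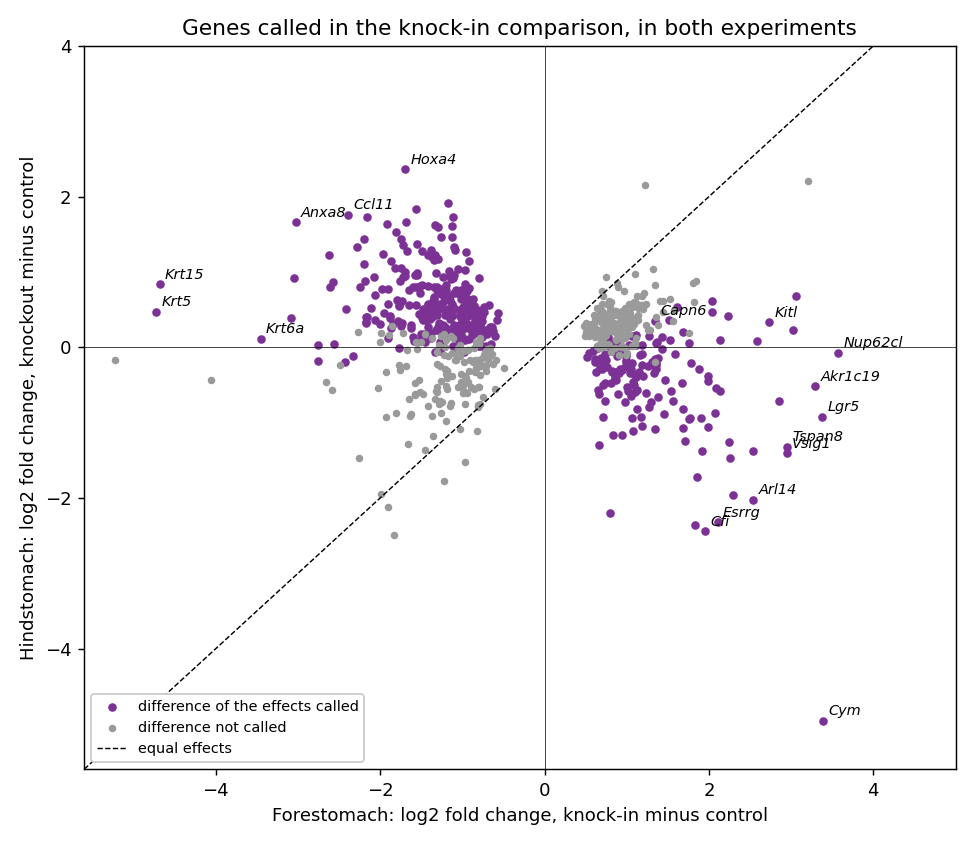
Log2 fold change in the forestomach, libraries labelled knock-in over controls (x axis), against log2 fold change in the hindstomach, knockout over controls (y axis), for the 742 genes called in the forestomach. Purple points had a called difference between the effects, and the dashed line marks equal effects. Vsig1, Tspan8, Lgr5, Arl14, Esrrg, Cfi and Cym lie at the lower right, above 0 in the forestomach and below 0 in the hindstomach.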

How the data were processed

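The authors deposited one table of FPKM values, with a column for each of the 14 libraries. The aligner, the program behind the FPKM values, the annotation, and how fragments were assigned between paralogs, overlapping genes or strands were not given in the sources used here. Per the labels' protocols, libraries were made with a directional kit, and the genome build is mm9, per the submitters' processing notes. Absolute depth is unknown.

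From the deposited FPKM, 108 exact duplicates among 22906 entries were dropped. A minimum of 1 FPKM in 3 or more libraries left 12694 genes. A gene could reach it in 1 group of 3 libraries alone, and was then tested only because it was high in that group. Values were taken as log2(FPKM + 1) without further scaling, a scale that understates the change of low genes. One mean per group was fitted over all 14 libraries with limma 3.58.1 in R 4.3.3 (eBayes with trend and robust options, statmod 1.5.0), with Benjamini-Hochberg adjustment over all genes tested. Single values were compared by exact permutation. The fit was tested on simulated data. No pair of forestomach libraries held an identical value for a gene above 0 in both.

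The genes and the gene lists were chosen with earlier results of these data known. The genes named are the GATA factors Gata4 to Gata6, the 5 markers, the 12 largest changes in each direction among called genes with no overlap between groups, up to 3 called members of each list (or the member with the highest FPKM where none was called), and the 5 largest differences from the knockout in each direction. Gene models without a symbol of their own, ribosomal pseudogenes and genes that tell sex were left out. Other genes, such as Muc1, Habp2, Sox21, Cldn10, Cldn18, Ctse, Tff1, Sox2, Trp63, Pax9, Krt4, Lor, Axin2, Dlx3, Irx3, Cxcr4 and Hoxb6, were named after their values were seen. GC content came from transcripts of GRCm38, matched to 99.33% of genes tested, and promoter windows came from RefSeq on GRCm38.p6, neither of which is the authors' build. The alternatives tried were another pseudocount, other filters, other scalings, array weights, eBayes without trend, a fold threshold, the GC slope as covariate, the forestomach libraries alone and each library left out.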

Additional observations from a re-analysis of the deposited data

How the results depend on the processing

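No paired analysis was possible because the libraries labelled knock-in are numbered 1, 2 and 4 and the controls 2, 3 and 5, which share only number 2. Counts of called genes moved with the processing far more than directions did. Fitted alone, the 6 forestomach libraries gave 0 genes higher and 0 lower in limma, although 1932 genes had an unadjusted p under 0.05. Rescaling to a common sum gave 576 higher and 177 lower, quantile normalization 121 lower, array weights (limma's gene-by-gene method) 2789 higher and 6473 lower, and a fold change threshold 12 higher and 0 lower, where 203 genes had an unadjusted p under 0.05 against that threshold. Leaving out 1 library gave 68 to 1743 higher and 46 to 5272 lower, fewest without knock-in 1, knock-in 2 or control 2 and most without control 5. Without controls 2 and 3, an alternative chosen after the data were seen, 36 were higher and 29 lower, of which 33 and 18 were among the original calls. The GC slope covariate shared 202 higher and 184 lower calls with the fit reported.

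Differences from the knockout below 0 numbered 623 after rescaling, 444 after quantile normalization, 3239 with array weights, 2282 with the GC slope, 10 with the fold threshold, 621 without controls 2 and 3, and 497 to 1274 with 1 library left out. Differences above 0 numbered 1302 with array weights, 1152 with the GC slope and 38 with the fold threshold. The log2 fold change of Gata4 was -0.99 with array weights, where it was called, 0.30 with the GC slope and 0.036 without controls 2 and 3. Signs were followed through all alternatives only for genes named by the rule given above, not for those named after their values were seen. Among the former that were not called, the sign turned for Fgfr2 with array weights (-0.038), for Shh (-0.49), Ldha (0.24) and Cela1 (0.010) with the GC slope, for Shh (-0.37) and Ldha (0.42) without controls 2 and 3, and for Shh with 1 library left out (-0.16 to 0.69). No called gene named by that rule turned its sign under any of these alternatives. The causes were not tested. The design of 3 against 3 libraries and an unknown absolute depth limit what can be said of weakly expressed genes.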

Other observations

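Some further genes passed as higher without each library in turn, and those given here were picked out after their values were seen. Atp1b1, the beta subunit of the sodium pump, stood at 122, 103 and 153 FPKM in libraries labelled knock-in 1, 2 and 4, against 26.9, 37.2 and 34.7 FPKM in controls 2, 3 and 5 (log2 fold change 1.90, SE 0.21, limma adjusted p = 0.000636). Aldh1a7, a close relative of Aldh1a1 with which it may share fragments, stood at 162, 142 and 186 FPKM, against 41.7, 43.3 and 29.6 FPKM in the controls (2.08, SE 0.21, adjusted p = 0.000347). Cckar, a receptor for the gut hormone cholecystokinin, stood at 6.25, 5.15 and 5.64 FPKM, against 1.05, 0.683 and 0.611 FPKM (1.91, SE 0.27, adjusted p = 0.00289). All 3 were called lower in the hindstomach knockout, with log2 fold changes of -0.94, -0.87 and -1.38.

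Slc2a12, a glucose transporter, and Sptssb, a subunit of the enzyme that starts sphingolipid synthesis, rose without overlap (2.03 and 2.14, adjusted p = 0.00225 and 0.000612) but stood at 1.60 and 8.87 FPKM in hindstomach controls, below their levels in every library labelled knock-in, and were not called in the knockout. Adh7, a retinol-active alcohol dehydrogenase of the upper gut, likewise stood at 1.55, 1.62 and 2.51 FPKM in libraries labelled knock-in, against 0.175, 0.118 and 0.0855 FPKM in the controls, and at 0.334 FPKM in hindstomach controls. Adh7 passed the filter through the libraries labelled knock-in alone, so a fall of it could not have been found.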
